A study of Mus musculus with 8 samples.

Results

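The genes of the Runx and ETS transcription factors were followed by the accessible chromatin around them, during the first 2 h after IKZF1 (Ikaros) entered the nucleus of pre-B cells. The 9 genes were Runx1, Runx2 and Runx3, their partner Cbfb, and the ETS genes Ets1, Fli1, Erg, Elf1 and Etv6. Peaks of the 8 ATAC-seq lists were merged into regions where they overlapped by 1 bp or more, and a region was taken if the summit of at least 1 of its peaks lay in the body of a gene or within 20 kb of it. This gave 336 of 174718 regions: 52 at Runx1, 42 at Runx2, 25 at Runx3, 16 at Cbfb, 30 at Ets1, 62 at Fli1, 33 at Erg, 37 at Elf1 and 39 at Etv6. All positions are on GRCm38 (mm10), with genes of GENCODE vM21.

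RUNX proteins bind DNA through the Runt domain, and CBFB, which does not touch DNA itself, strengthens that binding. RUNX1 is needed for blood stem cells to form and for early B cells to develop, RUNX3 is best known from T and natural killer cells, and RUNX2 is the main regulator of bone formation. ETS proteins share a DNA-binding domain that reads a GGAA core, which is also part of the core read by the zinc fingers of IKZF1. ETS1 and ELF1 act in lymphocytes, FLI1 and ERG in blood stem cells, megakaryocytes and endothelium, and ETV6 (TEL) is a repressor. RUNX1 and ETV6 are joined in a common fusion of childhood B cell leukemia.

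ATAC-seq, in which the Tn5 transposase cuts open DNA and inserts adapters, was done on B3 cells, a mouse pre-B line transduced with Ikaros-ERt2. In this fusion IKZF1 carries the ligand-binding part of the estrogen receptor and moves into the nucleus when 4-hydroxytamoxifen (4-OHT) is added. All 8 libraries came from cells with the construct: 2 were made with no treatment (0 h), and a pair was made after 30 min, after 1 h and after 2 h in 500 nM 4-OHT. Per the study's methods, B3 cells with IKZF1 constructs were made with a retroviral vector and sorted for GFP, so the fusion was expressed from the vector. An effect of 4-OHT cannot be told apart from one of IKZF1 here, and since the labels do not say whether replicates were separate cultures, p-values measure only the spread between these libraries.

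The lists held 85903 to 103897 peaks, with a background of 0.26 to 0.405 fragments per bp and a median of 11 to 14 fragments at the summit. As a check of the cell type, the promoters of 7 B cell precursor genes, Pax5, Ebf1, Cd79a and Rag2 among them, had a peak within 1 kb in all 8 lists, while Vpreb1 had one in 4 lists and Rag1 in 7. Of 6 T cell promoters only Lck had a peak in all 8 lists, with Cd3g in 7, Cd4 in 4, and Cd3e, Cd8a and Bcl11b in none. No myeloid (5), erythroid (4) or epithelial (4) marker promoter had a peak in every list. Of these, Epor had one in 5 lists, Klf1 in 3 and Lyz2 in 2, and the rest in none.

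The regions that changed are shown first by their sequence. They are the 6 that were called at both 1 h and 2 h by the test described further on. Each stretch is the 200 bp of the GRCm38 genome around the region's summit, plus strand, 5′ to 3′. In all 6, capitals mark the 4-letter words of the IKZF1 core, GGAA (its reverse complement is TTCC) or GGGA (its reverse complement is TCCC), and the RUNX word TGTGGT on either strand, counted separately where they overlap. The 3 regions that fell held 3, 6 and 9 core words in the order shown, and the Runx3 stretch also held 1 RUNX word.
Fli1 +116 kb, chr9:32425475-32425674: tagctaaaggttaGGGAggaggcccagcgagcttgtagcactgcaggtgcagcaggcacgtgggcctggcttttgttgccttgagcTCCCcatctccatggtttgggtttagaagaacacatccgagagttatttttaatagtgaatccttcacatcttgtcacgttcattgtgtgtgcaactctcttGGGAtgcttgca
Runx3 +45.6 kb, chr4:135198022-135198221: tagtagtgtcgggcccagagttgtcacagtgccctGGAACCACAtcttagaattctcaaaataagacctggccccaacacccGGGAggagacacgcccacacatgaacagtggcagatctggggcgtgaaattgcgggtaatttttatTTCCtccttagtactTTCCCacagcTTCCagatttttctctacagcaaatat
Runx2 +36.6 kb, chr17:44777566-44777765: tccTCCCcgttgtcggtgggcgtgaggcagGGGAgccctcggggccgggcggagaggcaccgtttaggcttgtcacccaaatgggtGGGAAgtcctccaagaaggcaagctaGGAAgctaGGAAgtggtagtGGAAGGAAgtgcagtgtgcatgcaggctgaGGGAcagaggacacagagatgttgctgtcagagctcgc

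The 3 regions that rose held 1, 2 and 2 core words in the order shown, and each held 1 RUNX word.
Runx2 +45 kb, chr17:44690554-44690753: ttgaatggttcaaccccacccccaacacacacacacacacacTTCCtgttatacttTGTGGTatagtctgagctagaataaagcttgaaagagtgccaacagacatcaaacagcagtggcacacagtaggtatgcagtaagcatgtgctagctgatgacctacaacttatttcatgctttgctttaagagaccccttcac
Ets1 -78.5 kb, chr9:32617458-32617657: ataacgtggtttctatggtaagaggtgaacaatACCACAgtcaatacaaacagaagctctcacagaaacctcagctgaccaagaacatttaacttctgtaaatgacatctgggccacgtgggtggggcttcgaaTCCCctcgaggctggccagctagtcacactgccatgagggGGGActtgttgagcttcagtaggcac
Runx1 -13.2 kb, chr16:92710409-92710608: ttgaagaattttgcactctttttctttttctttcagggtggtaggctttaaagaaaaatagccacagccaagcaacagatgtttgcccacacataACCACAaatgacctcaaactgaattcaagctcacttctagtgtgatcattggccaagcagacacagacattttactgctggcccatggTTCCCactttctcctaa

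Regions are named by their gene and by the distance of their summit from the gene's nearest start site. Downstream (+) and upstream (-) are in the direction of transcription. Start sites are those of the basic GENCODE transcripts. At Ets1 the first of these lies 59801 bp inside the annotated gene, so a region named upstream there can lie in the gene body. The Ets1 -78.5 kb region lies 18.7 kb upstream of the annotated 5′ end. Most regions were not promoters: 285 of the 336 (84.8%) had no start site of any gene within 1 kb, near the 82.3% of all 174718 regions, and 250 (74.4%) lay in an intron. Of the 336, 85 had a peak in all 8 lists, 155 in 2 to 7 lists and 96 in 1 list only. The 85 were 14 at Runx1, 10 at Runx2, 9 at Runx3, 5 at Cbfb, 8 at Ets1, 17 at Fli1, 8 at Erg, 10 at Elf1 and 4 at Etv6.

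Strength was the authors' fold value, the pileup of fragments at the summit over the local background. It was ranked within each list among the 47875 regions that all 8 lists share and is given as a percentile, so a value of 90 means that 90% of those regions were weaker in that library. A percentile is relative, and a fall means that the region lost place to others. Changes were tested on normal scores of these ranks with limma across all 47875 regions, and a region was called at a Benjamini-Hochberg adjusted p under 0.01.

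At 2 h, 7 of the 85 regions were called lower than at 0 h (8.235%) against 4.71% of all tested regions, and 3 were called higher (3.529%) against 2.28%. They lay at 6 of the 9 genes: Runx1, Runx2, Runx3, Ets1, Fli1 and Erg. No region of Cbfb, Elf1 or Etv6 was called. At an adjusted p under 0.05 there were 20 lower, where 11.1% of all regions passed, and 8 higher, where 8.34% did. The split between lower and higher depended on the scale. Ranks gave 67.4% lower among all calls at 2 h, ranks among all peaks of a list 52.1% and recovered fragments over background 47.6%, and for the Runx and ETS regions these scales gave 7 lower with 3 higher, 4 with 3, and 14 with 6. Among all calls, fragments centred on each library gave 63.3% lower. Ranks by −log10 p-value gave 68.7%, and a mean trend and robust prior gave 59.2%. By rank among all peaks the 4 lower (4.71%) and 3 higher (3.53%) stood against 2.73% and 2.5% of all regions. By fragments the 14 lower (16.5%) stood against 7.15%, and the share of the 6 higher (7.06%) was below the 7.87% of all regions. Called regions were picked for their change from 0 h to 2 h, so separate libraries at these times are no further support. Over all 47875 regions both 2 h libraries lay below both 0 h libraries in 29.8% and above them in 32.8%. The share with every treated library on the same side was not counted.

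The deepest fall was at the Fli1 +116 kb region (chr9:32425393-32426012), in an intron near the 3′ end of the gene. Its percentile was 84.6 and 94.6 before treatment, 24.5 and 47.1 after 30 min, 20.8 and 21.0 after 1 h, and 9.72 and 11.3 after 2 h. Both libraries of each treated time lay below both 0 h libraries. In fragments at the summit this was 76 and 67 before treatment against 17 and 19 after 30 min and 9 and 9 after 2 h. The shift in normal score was -2.57 ± 0.31 (SE, limma adjusted p = 0.00138), and the region was also called at 1 h (adjusted p = 0.00367). In the other direction, the Fli1 intron region at +10.5 kb went from 43.1 and 52.0 before treatment to 69.8 and 71.2 after 30 min, 73.2 and 85.6 after 1 h, and 82.1 and 79.6 after 2 h, with every treated library above both 0 h libraries, but it was not called (adjusted p = 0.036). A second Fli1 intron region called lower, at +97.5 kb (chr9:32443975-32444186), fell from 89.1 and 78.5 to 9.23 and 32.6 (-1.90 ± 0.33, adjusted p = 0.00468). FLI1 is one of the ETS factors of blood stem cells, and its locus held the most regions of the 9.

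Runx3 had 2 called regions, both beyond the 3′ end of the gene. The one at +45.6 kb from the downstream start site (chr4:135197909-135198379) stood at 75.5 and 74.7 before treatment, 55.2 and 43.6 after 30 min, 26.6 and 10.1 after 1 h, and 7.92 and 14.6 after 2 h. The one at +29.5 kb (chr4:135181819-135182163) stood at 80.9 and 91.9, then 62.2 and 45.5, then 47.7 and 37.9, then 28.7 and 22.7. In both, each later time lay below both 0 h libraries. Their shifts at 2 h were -1.91 ± 0.30 (limma adjusted p = 0.00319) and -1.79 ± 0.29 (adjusted p = 0.00372), and only the former was called at 1 h (adjusted p = 0.00898).

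The Runx2 +36.6 kb region (chr17:44777460-44777816) was down at the first treated time. It went from 51.9 and 77.7 before treatment to 10.6 and 6.58 after 30 min, 8.95 and 5.47 after 1 h, and 4.40 and 5.47 after 2 h. Its 0 h libraries were the most unequal of the 10 called regions, yet both were above every treated one (-2.06 ± 0.30, limma adjusted p = 0.00242 after 2 h and 0.00531 after 1 h). It lies 514 bp from a start site of Supt3, which encodes a subunit of the SAGA coactivator and overlaps Runx2, so it may be read as belonging to either gene. It was the only called region with a start site within 1 kb.

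The other regions called lower were in introns of Runx1 and Erg. The Runx1 +18.2 kb region (chr16:92807720-92808140), downstream of the distal start site, gave 82.8 and 81.5 before treatment, 73.7 and 62.8 after 30 min, 43.5 and 58.2 after 1 h, and 37.2 and 31.5 after 2 h. The Erg +31.5 kb region (chr16:95427560-95427835) gave 47.4 and 47.5, then 26.1 and 24.9, then 21.4 and 32.2, then 7.45 and 11.4. The groups of 0 h and 2 h did not overlap in either, as is likely for regions called on this difference. Both were close to the threshold (limma adjusted p = 0.00886 and 0.00953), and neither was called at 1 h (adjusted p = 0.0514 and 0.174).

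The largest rise was in the Runx2 +45 kb region (chr17:44690478-44690748), in an intron. Its percentile was 19.4 and 12.6 before treatment, 34.4 and 48.1 after 30 min, 86.1 and 75.1 after 1 h, and 93.3 and 87.5 after 2 h. The fragments at its summit were 9 and 6 before treatment, 13 and 15 after 30 min, 32 and 25 after 1 h, and 47 and 35 after 2 h. It went from among the weaker regions to among the strongest in 2 h (2.33 ± 0.29, limma adjusted p = 0.00144, and 0.00441 after 1 h). The Runx2 window therefore held a region that fell, which may belong to Supt3 instead, and one that rose. The start sites of Runx2 itself had only weak peaks.

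At the Ets1 -78.5 kb region (chr9:32617379-32617723), upstream of the annotated gene and in an intron of the transcript Gm47680, the percentile was 0.702 and 8.60 before treatment, 32.1 and 23.6 after 30 min, 47.8 and 55.0 after 1 h, and 50.6 and 69.1 after 2 h. The fragments rose from 18 and 18 to 60 and 44, 84 and 81, and 87 and 102. These are many fragments for a middle percentile, since the fold divides by the local background: it was 3.86 and 5.00 before treatment and 12.8 and 15.7 after 2 h. The shift in normal score at 2 h was 2.17 ± 0.37 (limma adjusted p = 0.00417 after 2 h and 0.00953 after 1 h). ETS1 is the founding member of the family and restrains the differentiation of B cells into plasma cells.

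The Runx1 -13.2 kb region (chr16:92710234-92710634), between the distal and the proximal start site of the gene and named from the latter, stood at 2.54 and 10.4 before treatment, 31.4 and 43.0 after 30 min, 68.7 and 45.2 after 1 h, and 51.6 and 51.7 after 2 h. The treated libraries were all above both 0 h libraries (1.65 ± 0.33, limma adjusted p = 0.00794 after 2 h and 0.00835 after 1 h). Of the 10 called regions, the 7 lower ones started at a mean percentile of 47.5 to 89.6 and the 3 higher ones at 4.65 to 16. The 0 h values enter the call, and a large fall needs room below and a large rise room above. These starts were therefore partly set by the selection.

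**Figure D1:**
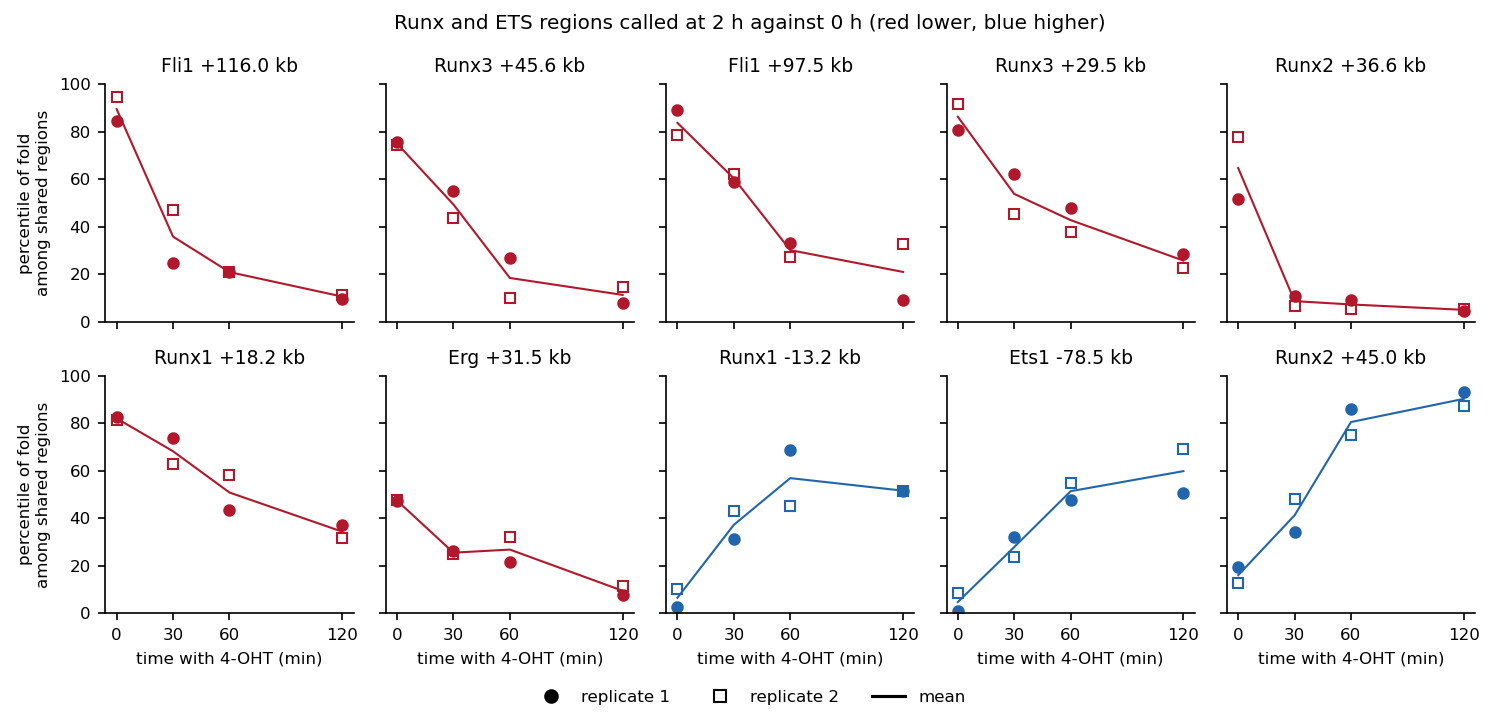
Percentile of the fold among the 47875 shared regions (y axis) against minutes with 4-OHT (x axis) for the 10 regions called at 2 h, each named by its gene and its distance from the nearest start site of that gene. Filled circles are replicate 1, open squares replicate 2 and lines their mean. The 7 red regions fall from a mean of 47.5 to 89.6 before treatment, and the 3 blue ones rise from 4.65 to 16. The 0 h values entered the call, so these starts are partly set by the selection.

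With 2 libraries a group, these calls rested on each of them. Leaving out a library of 0 h or 2 h left that time with 1 library. Most or all calls at 2 h were then lost, here and among all tested regions. All 10 kept their direction under each of the 14 alternative fits.

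At 30 min no region of the 47875 passed the adjusted threshold of limma in either direction (0%). At an unadjusted p under 0.05, 16 of the 85 were lower and 11 higher, against 9.94% and 9.51% of all regions. At an adjusted p under 0.05 there were 2 lower, the Runx2 +36.6 kb (0.0239) and Fli1 +116 kb regions (0.0292), and 0 higher, against 1.49% and 0.702%. At 1 h, 3 were called lower and 3 higher, against 2.51% and 1.1% of all regions. These were the 6 regions printed above, and all 6 were called again at 2 h.

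Between the treated times no region was called: 0% for 1 h against 30 min, 0% for 2 h against 1 h and 0% for 2 h against 30 min. At an unadjusted p under 0.05, the step from 30 min to 1 h gave 4 lower and 4 higher of the 85 (5.89% and 5.42% of all regions), and the step from 1 h to 2 h gave 5 lower and 1 higher (3.03% and 2.88%). From 30 min to 2 h the counts were 15 lower and 2 higher (9.12% and 7.81%).

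Over the 85 regions shared by all lists, the median change in percentile from 0 h to 2 h was -8.66 points, with 52 down and 33 up, while that of all 47875 regions was 1.36 points. For the 63 distal ones it was -10.4 points beside 3.63 for all distal regions. In 41 of the 85 both 2 h libraries lay below both 0 h libraries, against 29.8% of all regions, and in 23 both lay above, against 32.8%. The 85 regions began higher, at a median of 60.6 before treatment against 49.1. Over the 85 the Spearman correlation of the 0 h percentile with the change was -0.448, and over all regions it was -0.424; the 0 h values enter both quantities. The part of the higher start in the median fall was not tested.

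**Figure D2:**
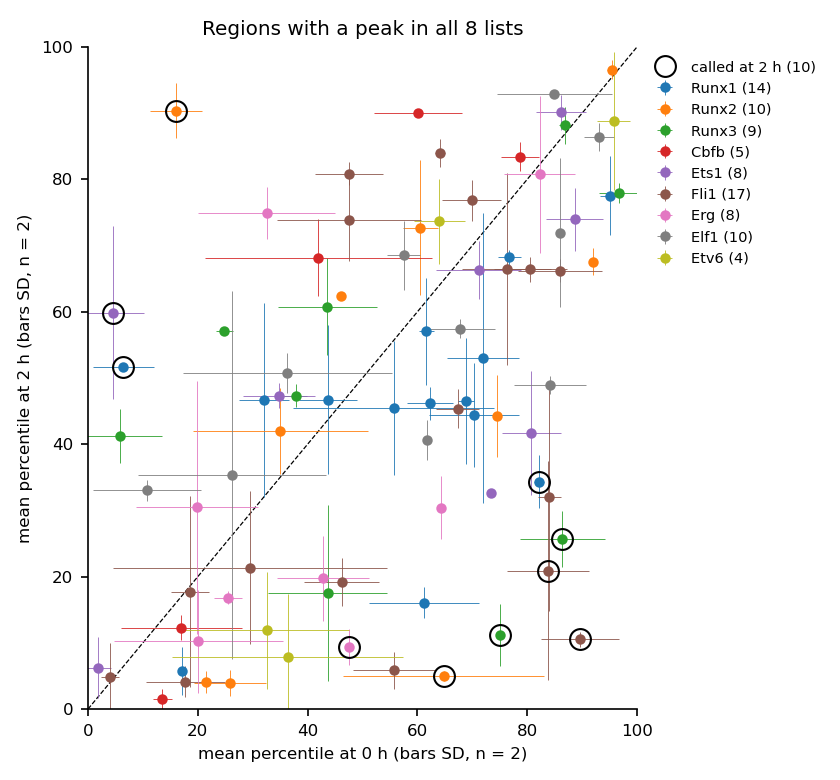
Mean percentile at 2 h (y axis) against that at 0 h (x axis) for the 85 regions shared by all 8 lists, coloured by gene, with bars for the SD of 2 libraries and rings around the 10 called regions. More points lie below the dashed line of equality (52) than above it (33).

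Genes differed in their medians, without a test of the difference. The median change from 0 h to 2 h was -13.8 points at Runx1 (11 of 14 regions down), -13.6 at Fli1 (12 of 17 down), -13.8 at Etv6 (3 of 4 down), -9.28 at Erg (6 of 8 down) and -8.08 at Runx2 (5 of 10 down). It was near 0 at Runx3 (1.35), Ets1 (-0.424) and Elf1 (0.689), and 4.75 at Cbfb. The range within a gene was wider than the spread of medians: at Runx2, regions moved from -59.8 to 74.4 points, and at Runx3 from -63.9 to 35.4.

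**Figure D3:**
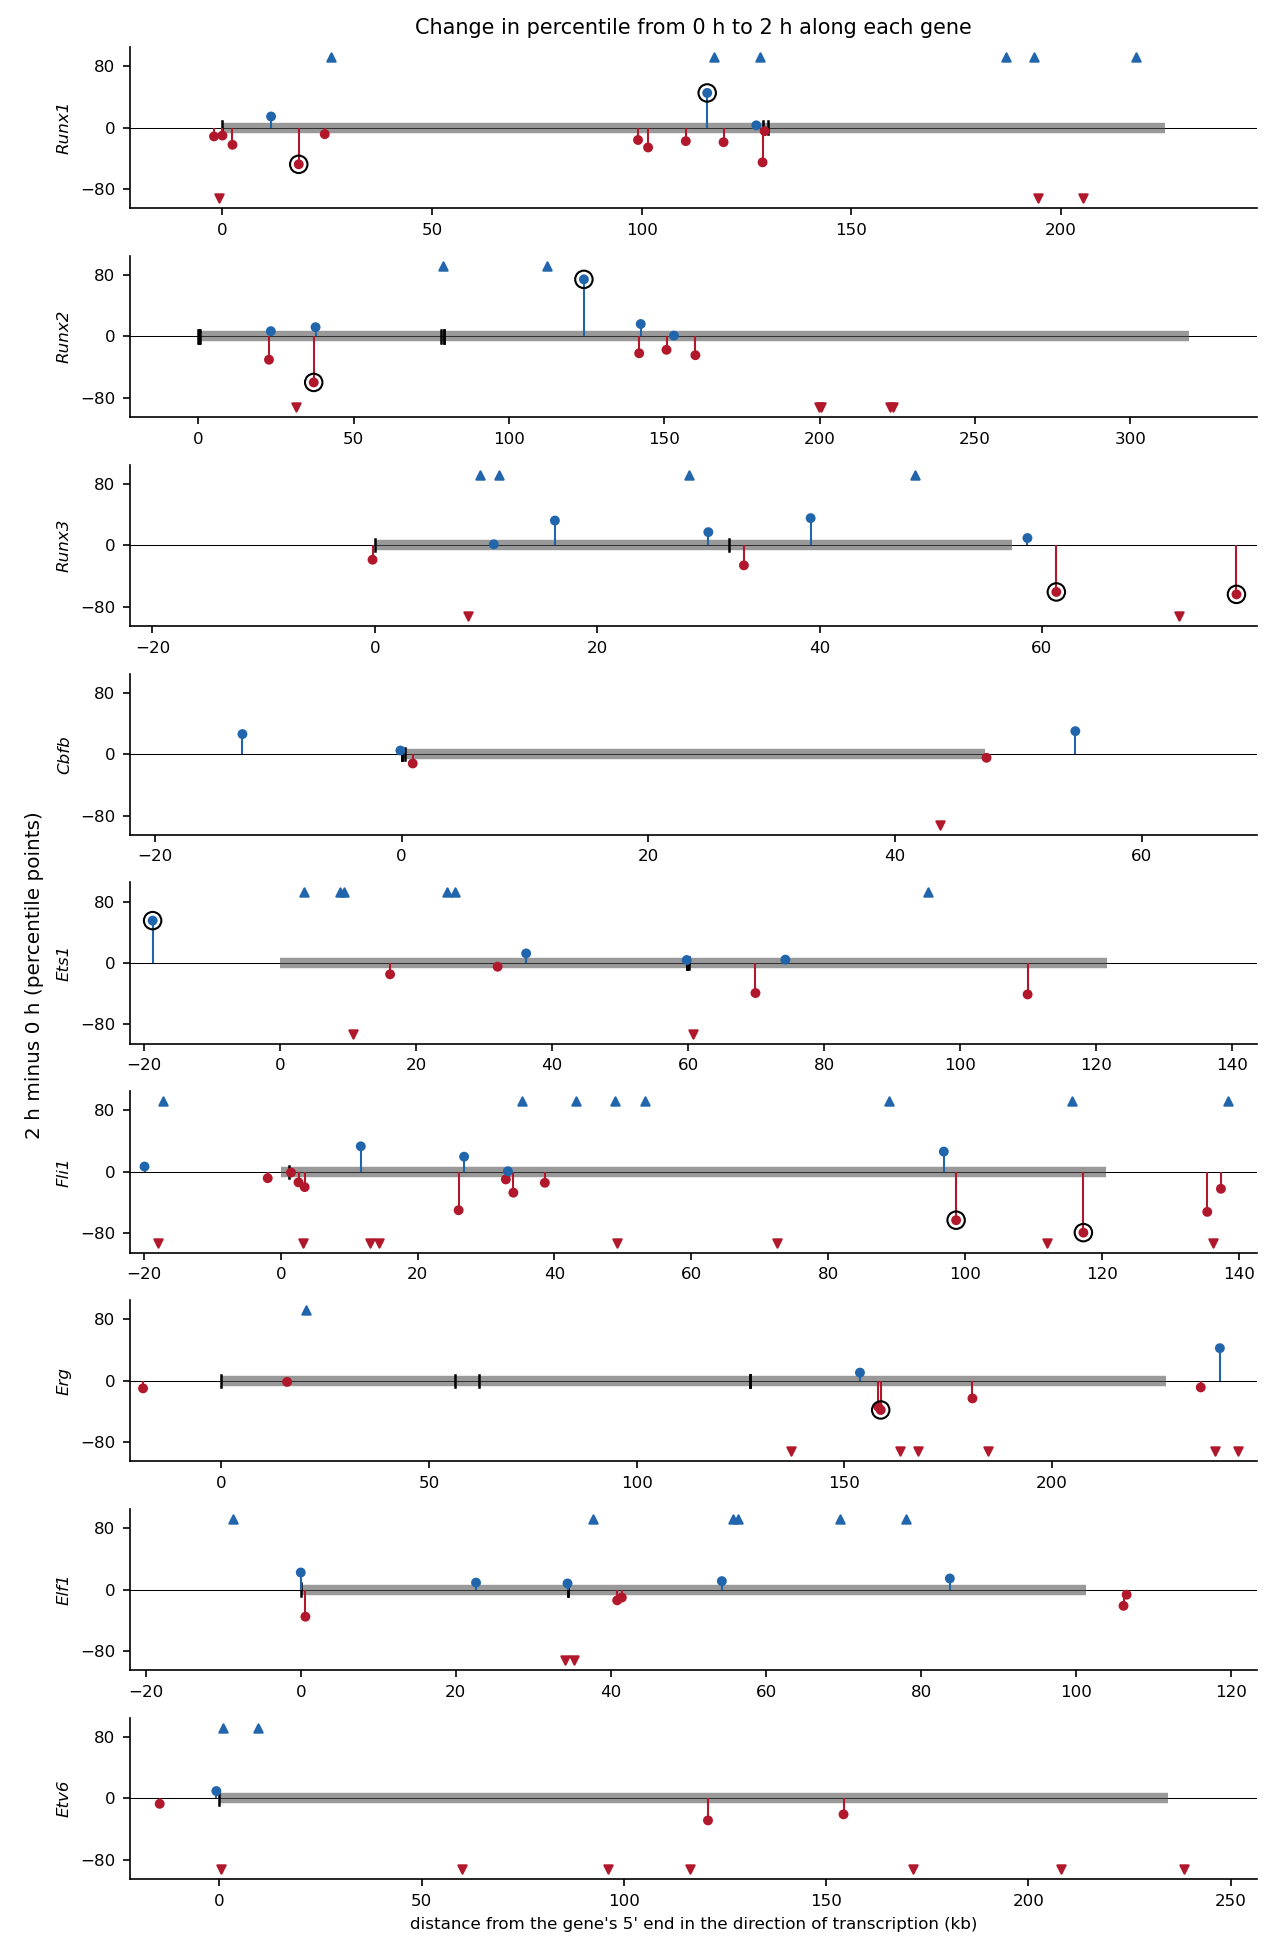
Change in mean percentile from 0 h to 2 h (y axis, points) for regions shared by all 8 lists, along the distance from each gene's 5′ end (x axis, kb), with the gene as a grey bar, start sites as black ticks and rings around called regions. Triangles at the lower and upper edge mark the 36 regions lost and the 35 gained at 2 h, and each gene holds both falling and rising regions.

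Only 12 of the regions shared by all 8 lists had a start site of their own gene within 1 kb. None was called at 2 h, where 4.71% of all regions were lower and 2.28% higher. At a limma adjusted p under 0.05, 4 of the 12 were lower and 0 higher, against 11.1% and 8.34% of all regions. So few regions cannot show that start sites held steady. The Cbfb promoter region, 0.1 kb upstream of its start, was at 78.7 ± 3.47 before treatment and 83.4 ± 2.16 after 2 h (SD, n = 2; limma adjusted p = 0.715). The Ets1 region at its start was at 86.2 ± 4.57 and 90.2 ± 2.65 (adjusted p = 0.643), and the Fli1 region at +0.2 kb was low throughout, at 18.5 ± 3.49 and 17.7 ± 14.4 (adjusted p = 0.876). The libraries of both times overlapped at Ets1 and Fli1, and at Cbfb both 2 h libraries lay above both 0 h libraries by a small margin.

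Runx1 has a distal start site, P1, and a proximal one, P2, which give proteins with different first residues. The region at P1 was at 55.7 ± 18.3 before treatment and 45.4 ± 10.2 after 2 h (SD, n = 2; limma adjusted p = 0.605). At P2, 2 regions with summits 548 bp apart changed by different amounts. The one at the start site itself gave 55 and 48 fragments at 0 h, 37 and 24 after 30 min, 33 and 20 after 1 h, and 31 and 25 after 2 h, and its percentile went from 61.2 ± 10.0 to 16.1 ± 2.32 (adjusted p = 0.0177, not called). The one at +0.5 kb, in an exon, was at 61.7 ± 1.42 and 57.1 ± 8.10 (adjusted p = 0.783). The regions at P1 and at the P2 start, and the one over the Etv6 start given further on, were chosen after their values were seen.

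The Runx3 promoter region, 0.2 kb upstream of the distal start site, was among the strongest at 0 h, with percentiles of 94.2 and 99.2. It was at 98.3 and 91.0 after 30 min, 83.9 and 81.1 after 1 h, and 79.0 and 76.9 after 2 h. The 2 h libraries lay below both 0 h libraries, but the change was not called (limma adjusted p = 0.0372).

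Elf1 has start sites 34480 bp apart. The region at its upstream start was at 10.8 ± 9.81 before treatment and 33.0 ± 1.53 after 2 h (SD, n = 2; limma adjusted p = 0.0956), while the one 0.6 kb into the gene, 225 bp from a start site of Wbp4, was at 84.2 ± 6.53 and 48.9 ± 1.37 (adjusted p = 0.0251). The region at the downstream start was at 85.0 ± 10.5 and 93.0 ± 0.425 (adjusted p = 0.391). None was called. Etv6 kept a region 0.7 kb upstream of its start in all 8 lists (64.0 ± 4.59 and 73.6 ± 6.45, adjusted p = 0.517). The region over the Etv6 start itself gave 30 and 24 fragments at 0 h, 18 and 19 after 30 min and 13 and 11 after 1 h, and at 2 h it had 20 in 1 list and no peak in the other.

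Runx2 and Erg had no start-site region in all 8 lists. At the middle start sites of Runx2 a region at +0.4 kb had a peak in 3 lists, with 6 to 8 fragments. At Erg a region 0.3 kb upstream of a start had a peak in 6 lists, with 5 to 9 fragments. The strongest regions of these genes at 0 h were in introns: Runx2 at +74 kb (95.4 ± 0.827 before treatment, 96.6 ± 1.40 after 2 h; SD, n = 2) and Erg at +15.8 kb (82.3 ± 6.51 and 80.7 ± 11.9). Neither change was called (limma adjusted p = 0.753 and 0.964).

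The strongest region of Runx1 at 0 h lay 18.4 kb upstream of P2, in an intron. It went from 95.1 ± 1.90 before treatment to 77.5 ± 5.99 after 2 h (SD, n = 2; limma adjusted p = 0.0367). That of Ets1 lay inside the annotated gene, 43.6 kb upstream of its nearest basic start, and went from 88.6 ± 5.27 to 74.0 ± 4.82 (adjusted p = 0.165). That of Etv6 lay 14.7 kb upstream of its start and went from 95.8 ± 3.00 to 88.8 ± 10.5 (adjusted p = 0.482). That of Elf1, at +72.1 kb, was at 91.1 and 95.0 before treatment and 87.9 and 85.0 after 2 h (adjusted p = 0.301). It lies beyond the 3′ end of the gene, 46 bp from a start site of Sugt1. None of the 4 was called. The deepest fall at Etv6 was in the intron region at +120.8 kb, from 36.4 ± 21.1 to 7.80 ± 9.51 (adjusted p = 0.134, not called).

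Regions with a peak in only some lists were followed by presence. A region with peaks in both untreated lists and in neither list of a later time was counted as lost at that time, and one with the opposite pattern as gained. Both untreated lists held 144 of the regions, and 26 of these were lost at 30 min (18.06%, against 10.9% of all such regions), 29 after 1 h (20.14%, against 14.6%) and 36 after 2 h (25.0%, against 16.6%). Of the 124 present in neither, 17 were gained at 30 min (13.71%, against 11.1%), 29 after 1 h (23.39%, against 19.2%) and 35 after 2 h (28.23%, against 23.9%). With 2 libraries against 2, an exact two-sided permutation test of presence gives a p of 0.333 at best, so these are counts. Lists of 2 h were longer than those of 0 h, and with all lists cut to equal length 39 were lost and 27 gained at 2 h. This recount was not made over all regions, so the 16.6% and 23.9% are no background for it.

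The course of the lost and gained regions was followed by presence, and was not counted over all regions. Of the 36 regions lost at 2 h, 23 were already absent from both lists at 30 min and 26 after 1 h. Of the 35 gained, 10 were present in both lists at 30 min and 25 after 1 h, and a further 13 were in 1 list at 30 min. Absence from both lists and presence in both are unlike measures for weak peaks. Whether loss came earlier than gain was not tested. Most of these peaks were weak, with a median of 9.75 fragments in the lost and 11.5 in the gained regions, and 5 lost and 3 gained regions had a mean over 20 fragments. A missing peak means that the region did not reach the caller's q-value threshold in that list, not that it had no fragments.

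Etv6 lost 7 of its 16 regions present at 0 h by 2 h (43.75%) and Erg 6 of 16 (37.5%), against 16.6% of all such regions. These genes were singled out because their shares were the highest. At the others the share ran from 13.64% at Runx1 to 29.63% at Fli1, and the difference between genes was not tested. At Etv6 the 7 lay from 0.4 kb into the gene to just beyond its 3′ end, and 5 of them were in neither list of 30 min. All were weak, with 6 to 14 fragments at 0 h. The number of Etv6 regions with a peak was 22 and 25 before treatment, 17 and 14 after 30 min, 16 and 17 after 1 h, and 20 and 11 after 2 h, so that one 2 h library came close to the 0 h libraries. At Erg it was 21 and 17 before treatment and 13 and 15 after 2 h. At Elf1 it went the other way, from 20 and 15 to 22 and 22.

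**Figure D4:**
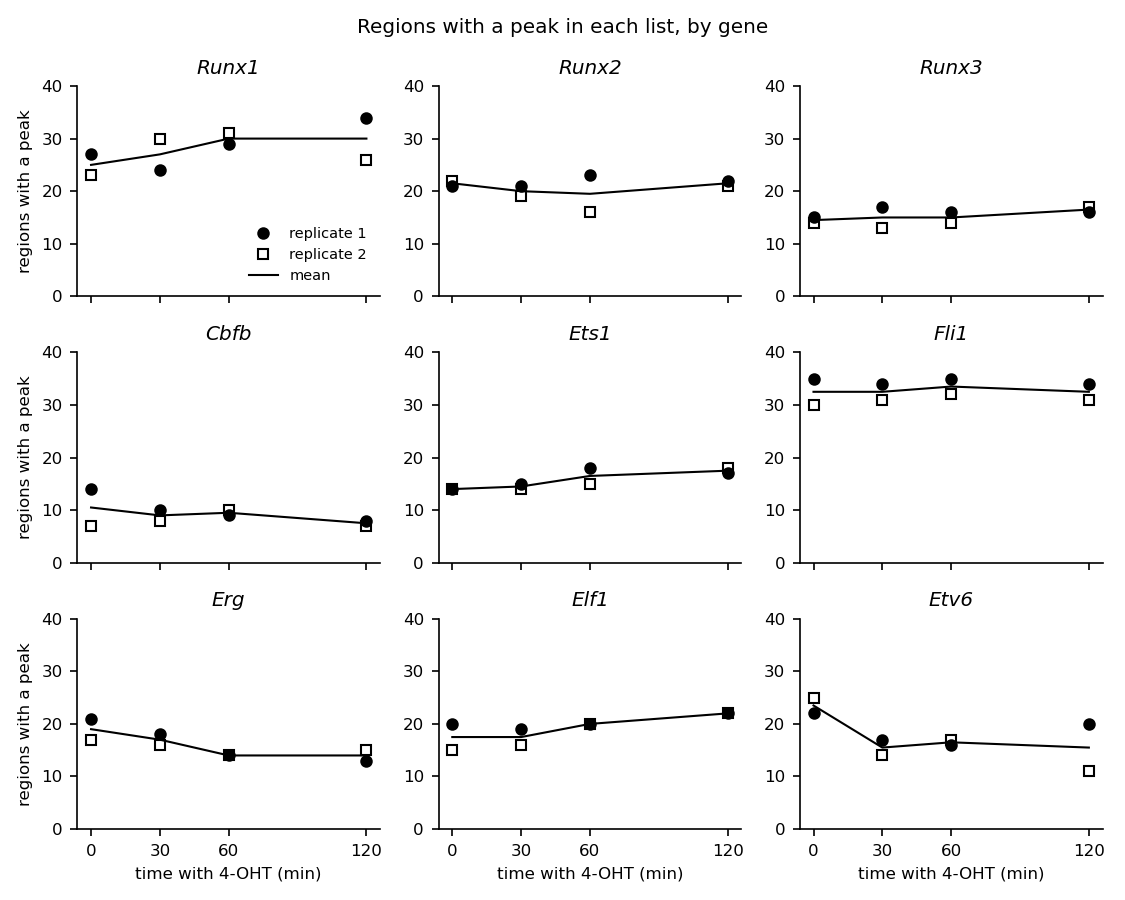
Number of regions with a peak (y axis) in each list against minutes with 4-OHT (x axis) for each gene; filled circles are replicate 1, open squares replicate 2 and lines their mean. Etv6 goes from 22 and 25 regions at 0 h to 20 and 11 after 2 h, while Fli1 stays between 30 and 35.

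The strongest lost region was 19.2 kb upstream of the Fli1 start (chr9:32560590-32560868), with 52 and 31 fragments at 0 h, at percentile 83.7 and 75.8 of all peaks of the list, and no peak in any of the 6 treated lists. A neighbouring region 459 bp away was in neither 0 h list and in both 2 h lists, with 8 and 8 fragments. A Fli1 intron region at +11.8 kb had 28 and 19 fragments at 0 h and no peak in a treated list. The Elf1 region at +0.7 kb from the downstream start, with 28 and 17 fragments, was likewise in no treated list. The Runx1 region 0.9 kb upstream of P1 had 27 and 16 fragments at 0 h and 19 in 1 list of 30 min, and the Runx3 intron region at +8.4 kb had 25 and 17 before treatment, then 20 in 1 list of 30 min and 11 in 1 list of 1 h.

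Among the gained regions, one lay inside the annotated Ets1 gene, 50.9 kb upstream of its nearest basic start (chr9:32645014-32645249). It had no peak at 0 h, then 12 and 7 fragments at 30 min, 18 and 19 after 1 h, and 29 and 15 after 2 h. A Fli1 intron region at +34 kb was in 1 list at 30 min with 18 fragments, then had 27 and 29 after 1 h and 38 and 38 after 2 h. An Elf1 region at +3.2 kb had 28 and 23 after 2 h and lay low in its lists, at percentile 5.35 and 0.727 of all peaks.

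Neighbouring regions did not always move together. Of the 12 pairs of tested neighbours with summits within 1 kb, 7 had changes of opposite sign (58.3%), near the 55.8% of the 5341 such pairs among all tested regions. The median gap between the 2 changes was 32.5 points, beside 20.5 over all such pairs, and this difference was not tested. The widest gap, 72.0 points, was next to the called Runx2 +36.6 kb region. Its neighbour, 549 bp away, stood at 58.3 and 62.8 before treatment and 79.9 and 65.5 after 2 h. These pairs were singled out after their values were seen. In Fli1, regions 844 bp apart changed by 19.8 and -49.9 points, and at the Elf1 upstream start regions 596 bp apart changed by 22.3 and -35.3 points. Neighbours share part of the local background that enters the fold.

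The DNA of the regions was searched for short words in the 200 bp around the summit, on both strands. The IKZF1 core words GGAA and GGGA numbered 6.14 on average in the 7 regions called lower, 1.67 in the 3 called higher and 4.48 in the other 75. Over all 47875 tested regions the mean was 4.30, and it was 6.06 in those called lower and 2.89 in those called higher. The deepest fall, at Fli1 +116 kb, was in a stretch with only 3 of these words. Across the 85 regions the Spearman correlation of the word count with the change was -0.453, and across all regions it was -0.372; regions of a gene share libraries and base composition.

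**Figure D5:**
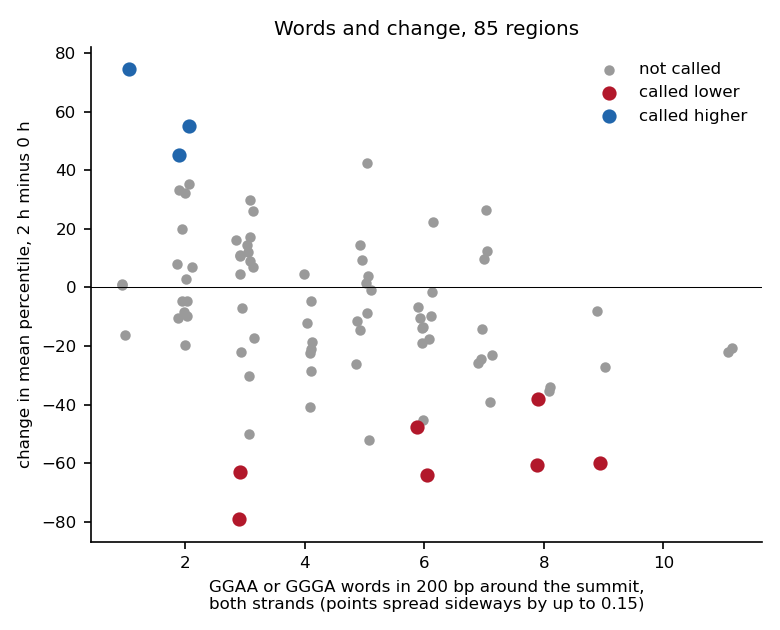
Change in mean percentile from 0 h to 2 h (y axis, points) against the number of GGAA or GGGA words in the 200 bp around the summit (x axis) for the 85 regions. The 3 blue regions called higher hold 1 or 2 words and the 7 red ones called lower hold 3 to 9.

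The longer word GGGAA was present in 46 of the 85 regions (54.1%) and in 42.4% of all tested regions. The RUNX word TGTGGT was in all 3 regions called higher, in 1 of 7 called lower and in 23 of the 85, or 27.1%, near the 23.4% of all tested regions; among all regions called higher it was in 36.5% and among those called lower in 32.5%. The ETS word CCGGAA, which contains GGAA, was in 5 of the 85 (5.88%, against 9.36%), and the word of the insulator protein CTCF in 4 (4.71%, against 9.03%). A word is a match of letters and says nothing of binding in these cells.

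For context, the same counts were made for other genes of both pathways. At 20 other ETS genes, 82 regions had a peak in all 8 lists. Of these 4 were called lower at 2 h (4.88%), at Etv3 (2), Elf2 and Elk3, and 0 higher, and 0 were called at Spi1, which encodes PU.1, or at Spib, both partners of B cell gene control. At 10 genes for RUNX partners, 2 of 49 were lower (4.08%), at Cbfa2t3, which encodes the corepressor ETO2, and at the deacetylase gene Hdac3. In the same list 3 were higher (6.12%), 2 at Kmt2a, which encodes the MLL methyltransferase, and 1 at the corepressor gene Sin3a. The background was the 4.71% lower and 2.28% higher given above, and the median change was -5.69 points at the other ETS genes and 1.00 at the RUNX partners.

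Cbfb, the shared partner of the RUNX proteins, had its largest change in a region that was not called. Its region at +54.3 kb lay beyond the 3′ end of the gene, in an exon of D230025D16Rik and 107 bp from a start site of that gene. It went from 54.4 and 65.8 before treatment to 79.3 and 83.5 after 30 min, 93.5 and 88.4 after 1 h, and 90.2 and 89.9 after 2 h. All treated libraries lay above both 0 h libraries, but the change was not called (limma adjusted p = 0.0239). At +0.6 kb a weak intron region went from 12.4 and 14.8 to 0.358 and 2.60 (adjusted p = 0.0256). The share of all tested regions that changed by 30 points or more without a call was not counted. Of the regions here shared by all 8 lists, 12 changed by 30 points or more without a call, 8 down and 4 up. Among these were the rise of the Erg region at +113.2 kb (32.5 ± 12.5 to 75.0 ± 3.97, SD, n = 2; adjusted p = 0.0182), the rise of the Runx3 region at +7.4 kb (5.80 ± 7.74 to 41.2 ± 4.05; adjusted p = 0.0207) and the fall of the Ets1 region at +49.7 kb (73.5 ± 0.248 to 32.6 ± 0.264; adjusted p = 0.0197).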

How the data were processed

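ATAC-seq was done on 8 libraries, 2 at each of 4 times. Per the labels and the study's methods, the authors aligned reads with BWA 0.7.17, shifted ends for the Tn5 offset, kept short, nucleosome-free fragments and called peaks with MACS2 2.1.2 on each library alone, with no control. The deposited lists give for each peak a score, the fold of the summit pileup over local background as a ratio, its −log10 p-value and −log10 q-value (lowest 1.3), and the summit. The methods name a human genome, but the labels give GRCm38 and all peaks of the 21 chromosomes lie inside it. Values are not scaled between libraries, so they were ranked within lists. No counts were used, and an exclusion list named in the methods was not used here.

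Fold and p-value together fix the whole number of fragments at a summit under the caller's Poisson model, which was recovered for 100% of peaks (Python 3.11.15, numpy 2.4.6). These numbers, a median of 11 to 14, limit the precision of a single peak. Regions shared by all 8 lists were fitted as 4 groups in limma 3.58.1 (R 4.3.3), with Benjamini-Hochberg adjustment over 47875 regions. Both steps were tested on simulated data. The 9 genes, the other gene lists, the words and the tests were chosen with earlier results of these data known.

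Named regions were, for each gene, the start-site region and the region strongest at 0 h, those with the largest fall and rise, every called region, and lost or gained regions with over 20 fragments; other regions are marked as chosen after their values were seen. Alternatives changed the scale, the peak threshold, the regions tested, the prior, the threshold, the flank (50 kb), the replicate block and the libraries used. Genome-wide counts and sequences used GRCm38.p6 and the basic transcripts of GENCODE vM21. For 1 gene of the B cell precursor marker list the result is not reported here.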

Additional observations from a re-analysis of the deposited data

Results flagged for a closer look

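The Runx1 intron region 24.4 kb downstream of P1 lay above its 0 h libraries at 30 min and below them at 2 h. It was picked from the 85 for this pattern, which was not counted over all tested regions. It stood at percentile 75.2 and 78.3 before treatment, 84.2 and 85.7 after 30 min, 83.0 and 88.7 after 1 h, and 69.0 and 67.4 after 2 h. Against 0 h this is 8.19 points at 30 min and -8.52 points at 2 h, with both libraries on the same side each time. Neither change against 0 h was called. The step from 30 min to 2 h gave -0.56 ± 0.25 in normal score (SE, limma adjusted p = 0.295) and was not called.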

How the results depend on the processing

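All 10 called regions kept their direction under the 14 alternative fits. A fit without 1 library leaves its time with a lone library, assumed to vary like the others. Without a library of 0 h or 2 h, most or all calls at 2 h were lost, here and among all tested regions. The same held at 1 h without a library of 0 h or 1 h. The Erg +31.5 kb region lost its call in 11 fits, Runx1 +18.2 kb in 10 and Runx1 -13.2 kb in 7. Counts of lower and higher regions at 1 h and 2 h, in that order, were 3 and 3, 7 and 3 as reported. Fragments over background gave 11 and 5, 14 and 6, where 5.16% and 4.26%, 7.15% and 7.87% of all regions were called, so that the share called higher at 2 h (7.06%) was below that of all regions. The same centred on each library gave 14 and 5, 18 and 5, against 6.63% and 3.48%, 9.37% and 5.43%. Regions in at least 2 lists gave 15 and 5, 21 and 6 of 240, against 4.33% and 1.33%, 6.27% and 2.36% of all such regions. A missing peak was set to a floor there. A region present in 1 group only therefore had to differ, and these counts are no test. An adjusted p under 0.05 gave 10 and 6, 20 and 8, against 8.18% and 5.74%, 11.1% and 8.34% of all regions. With a mean trend and robust prior 6 were lower at 1 h, against 4.43% of all regions. At 2 h that prior gave 11 lower and 5 higher, against 6.83% and 4.71%. Ranks among all peaks gave 1 lower at 1 h and 4 at 2 h, against 1.02% and 2.73% of all regions. A −log10 q of at least 5 gave 6 of 74 lower at 1 h, against 3.17%. At 30 min, 3 were lower by fragments, centred or not, against 1.27% of all regions and 1.3% if centred. By either of the next settings 2 were lower, against 0.549% (at least 2 lists) and 1.49% (adjusted p under 0.05).

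Regions lost at 30 min, 1 h and 2 h numbered 34 to 53, 37 to 57 and 38 to 63 without a library, against 26, 29 and 36, and those gained 20 to 46, 33 to 53 and 38 to 58, against 17, 29 and 35. Without 0 h replicate 2, 63 were lost at 2 h. With a library left out, the other list alone stood for its time, so these counts could only stay equal or rise. Over 20 fragments, 3, 4 and 5 were lost and 0, 1 and 3 gained. With a −log10 q of at least 5, 10, 17 and 22 were gained, and with lists of equal length 18 at 1 h. These recounts of lost and gained regions were not made over all regions.

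With the replicate number as a block, 5 regions were lower and 2 higher at 2 h, against 3.98% and 1.8% of all regions. At 1 h, 1 was higher, against 0.714%. The labels do not say whether replicates of the same number share more than a name. Deviations of replicates from their group means correlated weakly between times, at 0.0172 to 0.0403, all positive. Replicate 1 had more peaks and a higher background than replicate 2 at each time.

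Of 32 named regions, 7 changed sign under some setting, none of them called. By rank among all peaks the shift became 0.027 at Runx1 +0.5 kb, 0.074 at Fli1 +0.2 kb and 0.0599 at Erg +15.8 kb. By fragments it became -0.0211 at the Cbfb promoter and 0.00244 at Erg +15.8 kb, and by centred fragments -6.4e-05 at Runx2 +74 kb, -0.165 at the Cbfb promoter, -0.0219 at the Ets1 start and -0.0817 at Etv6 0.7 kb upstream. Without a library it ran from -0.249 to 0.0359 at Runx1 +0.5 kb, from -0.475 to 0.336 at Fli1 +0.2 kb and from -0.34 to 0.293 at Erg +15.8 kb. The causes were not tested.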
